A study of Mus musculus with 6 samples.

Results

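The genes described here are the 4 receptors of free fatty acids, Ffar1, Ffar2, Ffar3 and Ffar4, and Gpr119, a receptor of fatty acid amides and monoacylglycerols. They are 5 of the 54532 genes in the table, matched by gene name, and all 5 passed the filter of a mean of at least 1 FPKM (reads scaled by gene length and library depth). The set was chosen because Ffar3 was lower in Bcas2 cKO, so the values of Ffar3 between the groups are a description, with no test. RNA-seq covered 3 libraries of Bcas2 conditional knockout (Cko in the labels, Bcas2 cKO here) and 3 wild-type control libraries. All are from mouse pancreatic islets, with beta cell as the labelled cell type, and the design text calls the change in Bcas2 a knockdown. BCAS2 works in the spliceosome as part of the Prp19 complex. The labels give no age, sex, treatment, Cre line or deleted exon, and do not say whether each library is a separate animal. The p-values therefore reflect spread among libraries that could be technical replicates. Control columns carry the numbers 1, 3 and 4 and Bcas2 cKO columns 3, 4 and 5. The labels name Cko1, Cko3 and Cko4, so the label Cko1 has no column and the column numbered 5 has no label, and that column is used as a Bcas2 cKO library by its name alone. Whether the other Bcas2 cKO column numbers follow the labels cannot be checked from the values. Bcas2 itself held 8.76, 8.40 and 9.14 FPKM in Bcas2 cKO libraries 3, 4 and 5, against 10.3, 15.04 and 11.2 FPKM in control libraries 1, 3 and 4, and did not pass the test across all genes (limma, Benjamini-Hochberg adjusted p 0.083, threshold 0.05). Its groups did not overlap, which held with Bcas2 cKO lower for 21.1% of all genes tested. It passed as lower with voom on recovered reads (adjusted p 0.047) and without control library 1 (limma adjusted p 0.049).

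All 5 genes encode receptors coupled to G proteins. FFAR1 (GPR40) binds long-chain fatty acids, signals mainly through Gq, phospholipase C and protein kinase C, and strengthens glucose-stimulated insulin secretion. FFAR3 (GPR41) and FFAR2 (GPR43) bind short-chain fatty acids such as acetate and propionate, FFAR3 through Gi and FFAR2 through Gi and Gq, and both occur in mouse beta cells. FFAR4 (GPR120) also binds long-chain fatty acids and in mouse islets is found chiefly in delta cells, the somatostatin-producing cells. GPR119 couples to Gs and raises cAMP. A messenger RNA that carries the coding sequences of both GPR40 and GPR41 has been described in mouse beta cells.

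Ffar1, Ffar3 and Ffar2 lie in a row on the minus strand of mouse chromosome 7 (GRCm38). Ffar1 spans 30857390 to 30861564, Ffar3 spans 30854330 to 30856178, and Ffar2 spans 30818348 to 30823775. In the direction of transcription Ffar1 comes first, Ffar3 begins 1211 bases after its end, and Ffar2 begins 30554 bases after the end of Ffar3. GENCODE M21 gives Ffar1 1 transcript of 1 exon, in which 900 bases are coding and 3181 bases of the 3′ UTR follow, so most of the length behind its FPKM is UTR. Ffar3 has 2 transcripts of 1 or 2 exons and Ffar2 has 6 transcripts of 2 or 3 exons. Ffar4 lies on chromosome 19 from 38097079 to 38114263 on the plus strand (3 exons), and Gpr119 on chromosome X from 48667979 to 48674478 on the minus strand (2 exons). The gene totals do not say where in a gene its reads lie, so reads of a transcript running through Ffar1 and Ffar3 cannot be assigned to either alone.

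The bases just before the starts of these 3 neighbours are shown because Ffar1 and Ffar3 were lower in Bcas2 cKO and Ffar2 did not pass the test. They come from RefSeq (GRCm38.p6), are written 5′ to 3′ on the minus strand, and end at the base before the annotated start. For Ffar1 the window is the part of the RefSeq promoter that lies before the GENCODE start, and for Ffar2 it is the start farthest upstream. Capitals mark matches, on either strand, to the cAMP response element TGACGTCA, the AP-1 element TGANTCA, the E-box CANNTG and the homeodomain core TAAT, a choice of motifs made after the sequences were seen.
Ffar3 (chr7:30856179-30856428): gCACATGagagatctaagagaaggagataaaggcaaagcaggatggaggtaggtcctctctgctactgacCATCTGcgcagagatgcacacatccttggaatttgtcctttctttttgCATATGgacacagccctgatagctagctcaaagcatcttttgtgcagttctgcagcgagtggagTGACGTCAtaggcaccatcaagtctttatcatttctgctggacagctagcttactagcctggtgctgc
Ffar1 (chr7:30861565-30861720): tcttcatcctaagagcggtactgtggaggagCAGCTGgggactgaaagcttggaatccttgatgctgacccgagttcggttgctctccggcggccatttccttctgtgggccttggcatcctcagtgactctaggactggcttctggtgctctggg
Ffar2 (chr7:30823776-30824025): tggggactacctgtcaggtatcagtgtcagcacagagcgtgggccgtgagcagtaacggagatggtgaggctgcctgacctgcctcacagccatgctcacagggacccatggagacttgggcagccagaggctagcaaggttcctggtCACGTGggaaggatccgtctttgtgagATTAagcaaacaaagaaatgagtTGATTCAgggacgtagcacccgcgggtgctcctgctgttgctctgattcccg

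The Ffar3 window holds a full palindromic cAMP response element, the sequence bound by CREB and related factors, with 60 bases between it and the start. Of the 32851 RefSeq promoter windows of 250 bases, 1.55% hold this element on either strand. The same window holds 3 E-boxes, a motif of basic helix-loop-helix factors that 66.2% of windows have. The Ffar1 window of 156 bases holds 1 E-box, CAGCTG, as do 49.0% of windows of that length. The Ffar2 window holds an AP-1 element, which 6.75% of windows have, 1 E-box and 1 TAAT core on the other strand, which 54.9% have. No matched stretches overlap within these 3 windows. A match describes the letters only.

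Ffar3 had the lowest mean of the 5 in Bcas2 cKO and the highest after Ffar1 in control. It held 4.02, 3.93 and 3.29 FPKM in Bcas2 cKO libraries 3, 4 and 5, against 16.9, 10.7 and 9.68 FPKM in control libraries 1, 3 and 4. The groups did not overlap, and control library 1 was the highest of all. The mean was 3.75 ± 0.399 FPKM in Bcas2 cKO and 12.4 ± 3.89 FPKM in control (SD, n = 3 each), or 30.2% of the control mean. The difference of log2(FPKM + 1) was -1.46 (SE 0.19), and 36 of the 13723 genes tested had a lower one. Without control library 1 it was -1.24. These values rest on 105 to 135 reads in each Bcas2 cKO library and 263 to 495 in each control library.

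Ffar1, the receptor next to it, was also lower in Bcas2 cKO. It held 24.1, 22.8 and 20.8 FPKM in Bcas2 cKO libraries 3, 4 and 5, against 57.7, 34.3 and 39.8 FPKM in control libraries 1, 3 and 4. The groups did not overlap, and control library 1 again stood above the others. The mean was 22.6 ± 1.63 FPKM in Bcas2 cKO and 43.9 ± 12.3 FPKM in control (SD, n = 3 each), so that Ffar1 stood at 51.4% of control, on 1500 to 1822 reads in each Bcas2 cKO library and 1933 to 3824 in each control library. Ffar1 fell by 0.90 on the log2(FPKM + 1) scale (SE 0.18, 95% interval -1.33 to -0.46, limma with Benjamini-Hochberg adjusted p 0.023 over all genes tested). The call was lost without Bcas2 cKO library 3 (limma adjusted p 0.059), 4 (0.071) or 5 (0.076) and without control library 4 (0.062), while the difference stayed between -1.06 and -0.69. It was kept without control library 1, at -0.69 (limma adjusted p 0.015).

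Beside Ffar3, which is not tested here, Ffar1 was the 1 of the other 4 genes to pass at an adjusted p under 0.05 in limma. Of all genes tested 14.5% passed, 7.55% lower and 6.97% higher in Bcas2 cKO. Ffar1 and Ffar3 were the 2 of the 5 whose groups did not overlap, which held for 38.0% of all genes tested, with Bcas2 cKO the lower group in 21.1%. Since the set was chosen on this contrast, these shares stand beside the count as a description.

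**Figure D1:**
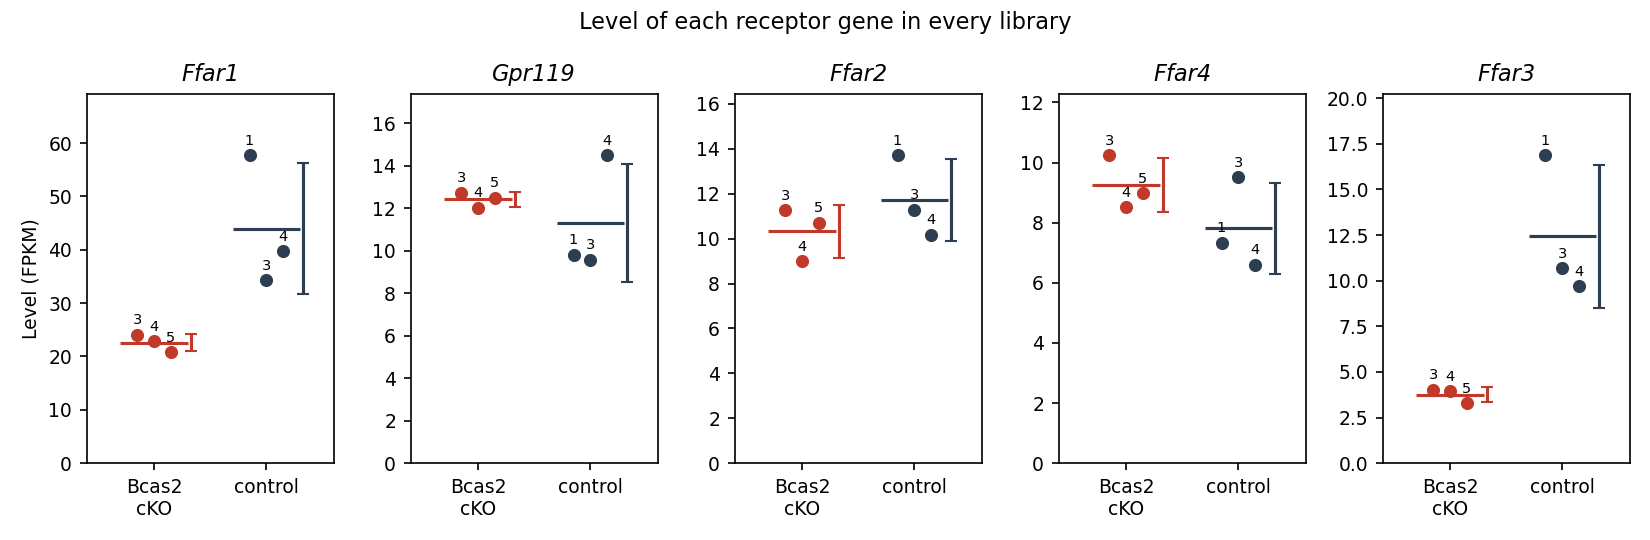
FPKM of each receptor gene (vertical axes from 0, one scale per gene) in the 3 Bcas2 cKO and 3 control libraries. Points are libraries labelled with their number, lines are means and bars are SD. Ffar1 and Ffar3 show no overlap between the groups, with the highest Bcas2 cKO value at 24.1 and 4.02 FPKM, and Gpr119, Ffar2 and Ffar4 overlap.

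Ffar2, the other short-chain fatty acid receptor of the cluster, did not pass the test. It held 11.3, 9.001 and 10.7 FPKM in Bcas2 cKO libraries 3, 4 and 5, against 13.7, 11.3 and 10.2 FPKM in control libraries 1, 3 and 4. The groups overlapped, with 1 Bcas2 cKO library below the lowest control library. The difference was -0.16 on the log2(FPKM + 1) scale (SE 0.13, 95% interval -0.47 to 0.14, limma adjusted p 0.42). That interval just meets the one of Ffar1, so their difference was tested as a ratio within each library. The ratio of Ffar1 to Ffar2 was 2.14, 2.54 and 1.95 in Bcas2 cKO libraries 3, 4 and 5, against 4.21, 3.04 and 3.91 in control libraries 1, 3 and 4. The groups did not overlap. On the log2 scale this ratio was lower by -0.75 in Bcas2 cKO, with a 2-sided exact permutation p of 0.1, the smallest that 3 against 3 libraries allow.

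Gpr119, the Gs-coupled receptor, did not pass the test either. It held 12.7, 12.0 and 12.5 FPKM in Bcas2 cKO libraries 3, 4 and 5, against 9.81, 9.57 and 14.5 FPKM in control libraries 1, 3 and 4. All Bcas2 cKO values lay inside the control range, where library 4 stood apart from the other two. The difference was 0.15 on the log2(FPKM + 1) scale (SE 0.15, 95% interval -0.21 to 0.51, limma adjusted p 0.54). Without control library 4 it was 0.33 (limma adjusted p 0.068).

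Ffar4, the delta cell receptor, held 10.2, 8.52 and 8.99 FPKM in Bcas2 cKO libraries 3, 4 and 5, against 7.33, 9.52 and 6.60 FPKM in control libraries 1, 3 and 4. The groups overlapped through control library 3, and 1 Bcas2 cKO library was above all control libraries. The difference was 0.23 (SE 0.13, 95% interval -0.09 to 0.55, limma adjusted p 0.29), and without control library 3 it was 0.36 (limma adjusted p 0.085). Ffar4 had the fewest reads of the 5 in control, 135 to 179 in each library, against 209 to 259 in each Bcas2 cKO library. Its neighbour Rbp4, a retinol-binding protein that also marks delta cells and lies 2356 bases away on the other strand, averaged 113 ± 13.4 FPKM in Bcas2 cKO and 124 ± 32.8 FPKM in control (SD, n = 3 each). Sst, the somatostatin gene, averaged 4612 FPKM in Bcas2 cKO and 5597 FPKM in control. The ratio of Ffar4 to Rbp4 was 0.104, 0.0727 and 0.0722 in Bcas2 cKO libraries 3, 4 and 5, against 0.0752, 0.0593 and 0.0581 in control libraries 1, 3 and 4, with overlap.

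**Figure D2:**
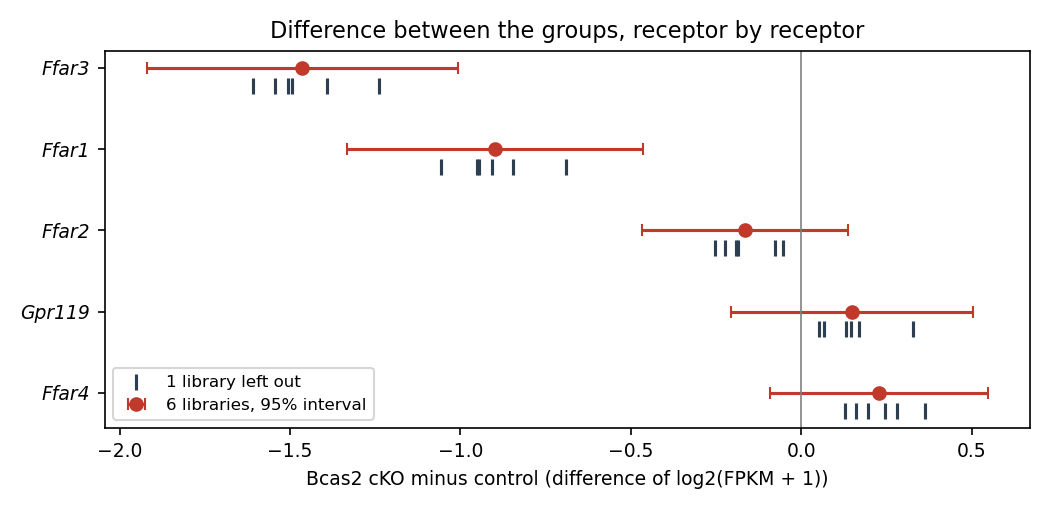
Difference of log2(FPKM + 1), Bcas2 cKO minus control, for each receptor gene. Points are the fit to 6 libraries with its 95% interval, and ticks below them are the fits with 1 library left out. Ffar3 (-1.46) and Ffar1 (-0.90) lie left of 0 with all their ticks, while the intervals of Ffar2, Gpr119 and Ffar4 include 0. The set was chosen for the fall of Ffar3, so its interval is a description and not a test.

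The order of the 5 levels differed between the groups. In Bcas2 cKO the means ran from Ffar1 (22.6 FPKM) through Gpr119 (12.4), Ffar2 (10.3) and Ffar4 (9.25) to Ffar3 (3.75), and neighbours in this order did not overlap except Ffar2 and Ffar4. In control they ran from Ffar1 (43.9 FPKM) through Ffar3 (12.4), Ffar2 (11.7) and Gpr119 (11.3) to Ffar4 (7.82), and Ffar3, Ffar2 and Gpr119 overlapped. Ffar1 was the highest of the 5 in every library. Among all genes tested it stood at percentiles 87.0 to 89.2 of level in Bcas2 cKO and 92.3 to 96.6 in control, and Ffar3 at percentiles 31.9 to 37.7 in Bcas2 cKO and 67.8 to 82.7 in control. Summed over the 5 genes, the libraries held 62.3, 56.3 and 56.3 FPKM in Bcas2 cKO 3, 4 and 5, against 105, 75.4 and 80.7 FPKM in control 1, 3 and 4. Ffar1 made up 37.0 to 40.6% of that sum in Bcas2 cKO and 45.5 to 54.7% in control, and Ffar3 5.85 to 6.98% in Bcas2 cKO and 12.0 to 16.001% in control.

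Ratios within a library do not depend on how the libraries were scaled to each other. Ffar3 over Ffar1 was 0.167, 0.172 and 0.158 in Bcas2 cKO libraries 3, 4 and 5, against 0.292, 0.312 and 0.243 in control libraries 1, 3 and 4. Control library 1, which was highest for both genes, had a ratio between those of the other 2 control libraries. Ffar1 was also lower relative to Gpr119 (log2 difference -1.09) and Ffar4 (-1.18), each with no overlap. Over the 3 ratios of Ffar1 to another receptor, the exact permutation p of 0.1 for each remained 0.1 after Benjamini-Hochberg adjustment. Set against Slc2a2, which encodes the main glucose transporter of mouse beta cells, Ffar1 did not separate the groups, with ratios of 0.230, 0.211 and 0.174 in Bcas2 cKO libraries 3, 4 and 5, against 0.297, 0.177 and 0.188 in control libraries 1, 3 and 4. Ffar3 over Slc2a2 did, at 0.0385, 0.0364 and 0.0275 in Bcas2 cKO libraries 3, 4 and 5, against 0.0867, 0.0552 and 0.0458 in control libraries 1, 3 and 4. Slc2a2 itself passed as lower in Bcas2 cKO in limma, so these ratios are set against a gene that fell.

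**Figure D3:**
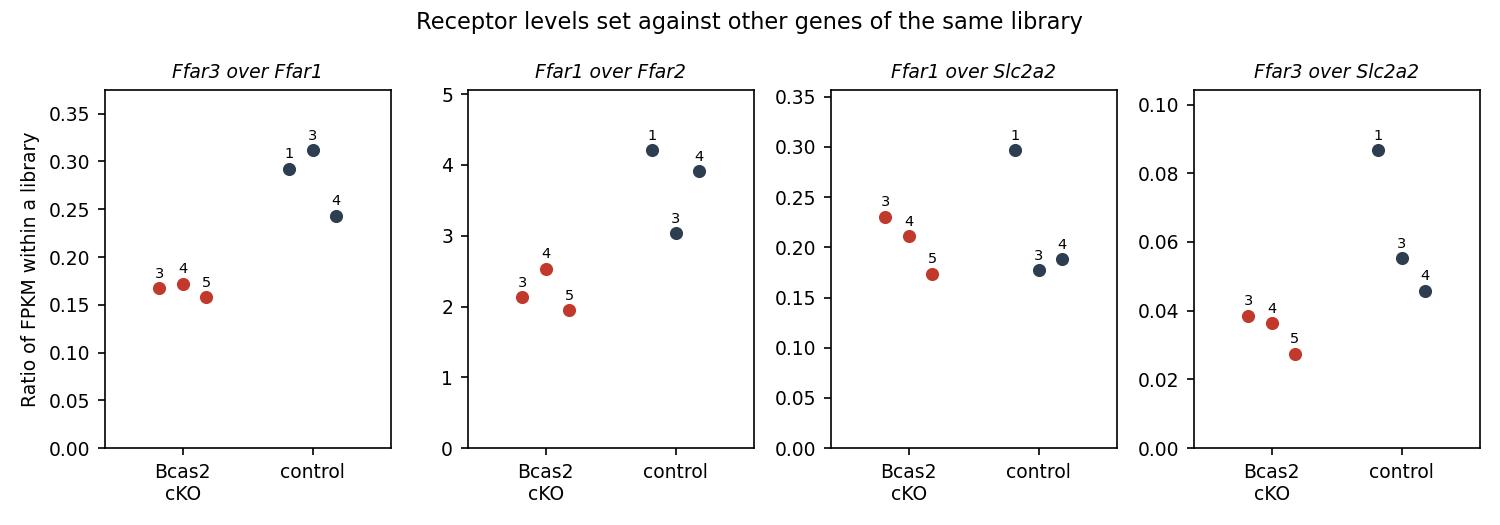
Ratios of FPKM between genes of the same library (vertical axes from 0), by group, with points labelled by library number. Ffar3 over Ffar1, Ffar1 over Ffar2 and Ffar3 over Slc2a2 are lower in every Bcas2 cKO library than in every control library, and Ffar1 over Slc2a2 overlaps. Slc2a2 was itself lower in Bcas2 cKO.

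Markers of some cell types moved with the groups. In bulk samples fewer cells of a type and less RNA per cell cannot be told apart. None of the 8 endothelial, 5 ductal, 2 PP cell (pancreatic polypeptide) and 1 adipocyte markers tested passed in limma, while 1 ductal marker fell with voom. Of 5 delta cell markers tested 1 fell and none rose in limma, and 1 fell and 1 rose with voom. Beside the 14.5% of all genes tested that passed, 28.6% of 14 beta cell markers did: Slc30a8, Ero1lb, Ucn3 and Slc2a2 fell and none rose in limma (1 rose and 5 fell at an unadjusted p under 0.05, 1 and 7 with voom). None was at 0. The 14 took 14.9 to 16.3% of reads in Bcas2 cKO and 20.8 to 29.1% in control. Most of these reads were of Ins1 and Ins2, neither of which passed (limma adjusted p 0.44 and 0.38). Ins1 took 655596 to 736868 reads in Bcas2 cKO and 791021 to 1029668 in control. Ins2 took 1522879 to 1782173 reads in Bcas2 cKO and 2086517 to 3018390 in control. Other islet and exocrine cells were present beside the labelled beta cells: 8 alpha cell markers, of which 2 rose and none fell in limma (3 rose and 2 fell at an unadjusted p under 0.05, 2 and 2 with voom), took 3.64 to 4.27% of reads in Bcas2 cKO and 2.93 to 3.10% in control. Of 17 acinar markers tested 5 rose in limma (29.4%), and 16 rose both at an unadjusted p under 0.05 and with voom. None fell, and the list of 18 took 1.81 to 5.13% of reads in Bcas2 cKO and 0.558 to 1.39% in control. Of 8 macrophage markers tested 5 rose in limma (62.5%), as with voom, and the list of 9 summed to 111 to 139 FPKM in Bcas2 cKO and 89.3 to 108 FPKM in control. Their part in the lower Ffar1 and Ffar3 was not tested. FFAR3 is also known from sympathetic neurons. Of 5 tested markers of neurons and Schwann cells 2 fell, among them Th, and 1 rose, the neurotrophin receptor gene Ngfr, and the list of 9 summed to 18.4 to 30.0 FPKM in Bcas2 cKO and 29.4 to 36.2 FPKM in control. Dbh, which such neurons use to make noradrenaline, was at 0, 0 and 0.0431 FPKM in Bcas2 cKO and 0, 0.165 and 0.303 FPKM in control. Th, the first enzyme of that path, fell to 10.3 ± 2.68 FPKM, against 19.2 ± 4.63 FPKM in control (SD, n = 3 each, limma adjusted p 0.042). Th stood far above Dbh in both groups. Whether the fall of Th reflects such neurons was not tested, nor were the cells that its reads came from. FFAR2 is known from neutrophils, whose genes Csf3r, Mpo and Cxcr2 were at or below 0.390 FPKM in every library. The list of 13 neutrophil and lymphocyte markers, which also holds S100a8 and S100a9, was not near 0. It summed to 8.63 to 17.1 FPKM in Bcas2 cKO and 8.88 to 16.4 FPKM in control, and none of the 3 tested passed in limma.

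Within 100 kb of any of the 5 lie 32 other genes, of which 15 were tested. Of these, 3 rose in Bcas2 cKO and none fell in limma, beside the 6.97% of all genes tested that rose and the 7.55% that fell, with a median of 0.15 against -0.03 over all genes tested. Around the chromosome 7 cluster, Usf2, a transcription factor gene 83683 bases before Ffar1, averaged 18.3 ± 1.67 FPKM in Bcas2 cKO and 19.4 ± 0.398 FPKM in control, and Lsr, a lipoprotein receptor gene beyond it, 11.1 ± 0.524 FPKM in Bcas2 cKO and 10.9 ± 1.17 FPKM in control (SD, n = 3 each). Tmem147, on the far side of Ffar2, averaged 35.6 ± 6.59 FPKM in Bcas2 cKO and 40.7 ± 5.27 FPKM in control. None of these 3 passed the test, and neither did Hamp2, Gapdhs or Sbsn, with differences of 0.54, 0.15 and 0.63. The groups of Sbsn did not overlap, at 1.05 to 1.66 FPKM in Bcas2 cKO and 0.365 to 0.958 FPKM in control. With voom Sbsn passed as higher in Bcas2 cKO (adjusted p 0.029). Atp4a, the gastric proton pump, rose by 0.80 (limma adjusted p 0.022) to 4.83 ± 1.22 FPKM, against 2.30 ± 0.277 FPKM in control, and lost its call without Bcas2 cKO library 4 or 5 or control library 4. Cd22, the nearest gene upstream of Ffar1, was at most 0.325 FPKM in every library and was not tested. Near Gpr119 on chromosome X, Rbmx2, a spliceosome protein gene, rose by 0.88 and Zfp280c by 0.48, and Slc25a14, a mitochondrial carrier gene, did not pass (-0.38, limma adjusted p 0.060), though its groups did not overlap. It passed as lower in Bcas2 cKO with a mean of at least 5 FPKM (limma adjusted p 0.049), with rescaling without the hormone genes (0.048) and without control library 1 (-0.47, 0.031). Zfp280c lost its call without Bcas2 cKO library 3 or 4. Near Ffar4, beside Rbp4, Fra10ac1 averaged 12.3 ± 0.896 FPKM in Bcas2 cKO and 11.8 ± 0.857 FPKM in control.

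**Figure D4:**
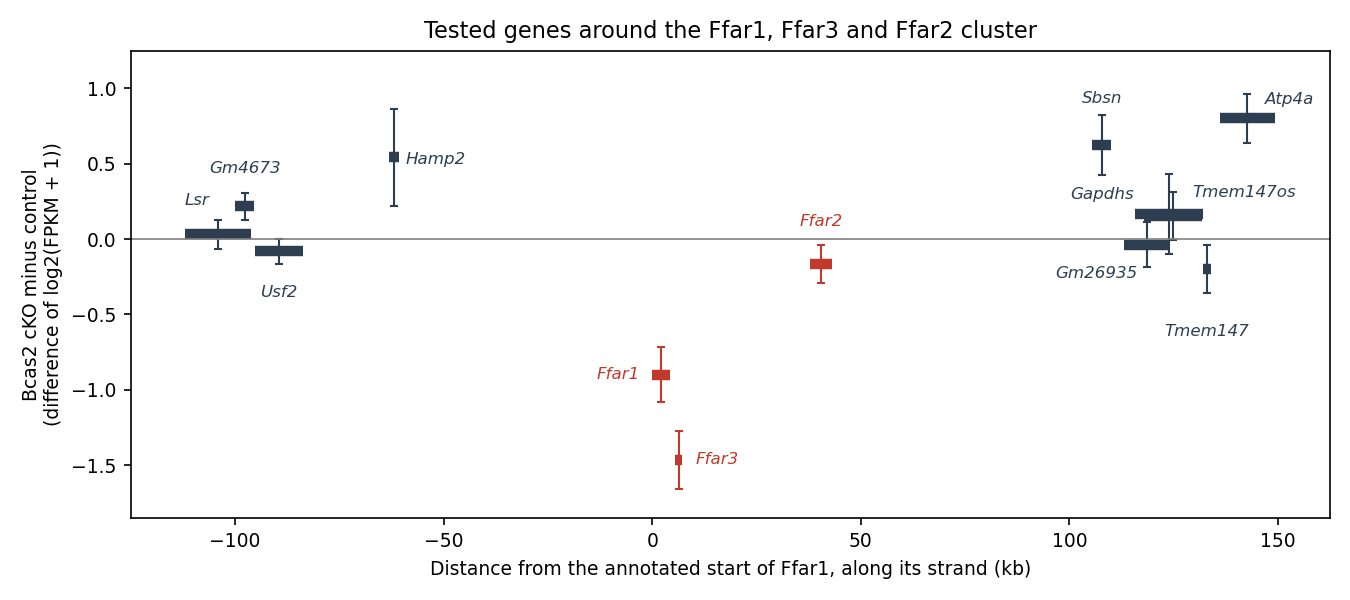
Difference of log2(FPKM + 1), Bcas2 cKO minus control, with its SE, for the tested genes within 100 kb of Ffar1, Ffar3 or Ffar2, against the distance from the start of Ffar1 along its strand in kb. Bars span each gene. Ffar1 (-0.90) and Ffar3 (-1.46) lie below all others, and Ffar2, farther along the same strand, lies at -0.16.

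Downstream of FFAR1 lie Gq, phospholipase C, the IP3 receptors of the endoplasmic reticulum, protein kinases C and D, and diacylglycerol kinases and Unc13 proteins, which consume or bind diacylglycerol. Of 22 such genes tested 6 fell and 1 rose (limma), 31.8% against 14.5% of all genes tested, with a median of -0.11 against -0.03. Prkca fell to 6.68 ± 1.35 FPKM in Bcas2 cKO, against 12.9 ± 1.04 FPKM in control, and Prkcb to 5.20 ± 0.572 FPKM, against 10.1 ± 0.716 FPKM (SD, n = 3 each). Both encode conventional protein kinases C, which calcium and diacylglycerol activate. Prkce, a kinase that needs diacylglycerol alone, fell by 0.56, the IP3 receptor genes Itpr2 and Itpr3 fell by 0.64 and 0.44, and Dgka, a diacylglycerol kinase, fell by 0.33. Prkd1, a protein kinase D that acts downstream of FFAR1 in insulin secretion, rose to 18.2 ± 1.42 FPKM, against 9.54 ± 1.45 FPKM in control (0.87, limma adjusted p 0.0062). The alpha subunits themselves did not pass: Gnaq averaged 16.7 FPKM in Bcas2 cKO and 19.8 FPKM in control (limma adjusted p 0.073), and Gna11 25.6 FPKM in Bcas2 cKO and 28.3 FPKM in control (0.22). The calls of Prkca, Prkcb, Prkce and Prkd1 held without each library in turn, whereas Itpr2 lost its call in all 6 of those fits and Itpr3 in 5.

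FFAR2 and FFAR3 act through Gi, and arrestins and receptor kinases switch receptors off. Of 10 such genes tested 2 fell and 1 rose in limma, 30.0% against 14.5% of all genes tested, with a median of -0.03. Grk5, a receptor kinase, fell to 8.19 ± 1.195 FPKM in Bcas2 cKO, against 19.0 ± 3.08 FPKM in control (-1.12, limma adjusted p 0.0049), and the related kinase gene Grk2 rose to 33.9 ± 1.75 FPKM, against 22.4 ± 1.03 FPKM (0.58, limma adjusted p 0.0063; SD, n = 3 each). Both held without each library in turn. Gnao1, a Go alpha subunit, fell by 0.42 and lost its call in 4 of those 6 fits. The Gi alpha subunit gene of highest level, Gnai2, averaged 92.4 FPKM in Bcas2 cKO and 91.1 FPKM in control. On the Gs and cAMP path of GPR119, Prkacb, a catalytic subunit of protein kinase A, was the 1 of 16 genes tested that passed in limma, 6.25% against 14.5% of all genes tested, while voom called 2 higher and 2 lower. It fell by 0.61 to 43.6 ± 0.719 FPKM, against 67.3 ± 6.57 FPKM in control, and held without each library in turn. Gnas, the Gs alpha subunit, averaged 28.4 FPKM in Bcas2 cKO and 21.2 FPKM in control (limma adjusted p 0.065).

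Genes that supply the ligands moved in both directions. Of 23 tested genes of fatty acid uptake, activation and release, 3 rose and 2 fell, 21.7% against 14.5% of all genes. Plin3, a lipid droplet coat protein, rose to 5.21 ± 0.735 FPKM in Bcas2 cKO, against 1.79 ± 0.322 FPKM in control, and Slc27a4, a fatty acid transport protein, to 17.1 ± 1.27 FPKM, against 9.53 ± 0.398 FPKM (SD, n = 3 each). Acsl4, which activates long-chain polyunsaturated fatty acids, rose by 0.42. Slc27a3, another member of the transporter family, fell by 0.55. Of 12 tested genes that make or break acylethanolamides and monoacylglycerols, 2 fell and none rose in limma, 16.7% against 14.5% of all genes tested (4 fell and 0 rose at an unadjusted p under 0.05, 2 and 0 with voom). They were Napepld, which releases acylethanolamides such as oleoylethanolamide, a ligand of GPR119, by 0.41, and Abhd6, a monoacylglycerol lipase counted in both lists, by 0.40. Plin3, Slc27a4 and Slc27a3 held without each library in turn, while Acsl4 lost its call in 4 of 6 fits, Napepld in 5, and Abhd6 without Bcas2 cKO library 3 or 5.

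**Figure D5:**
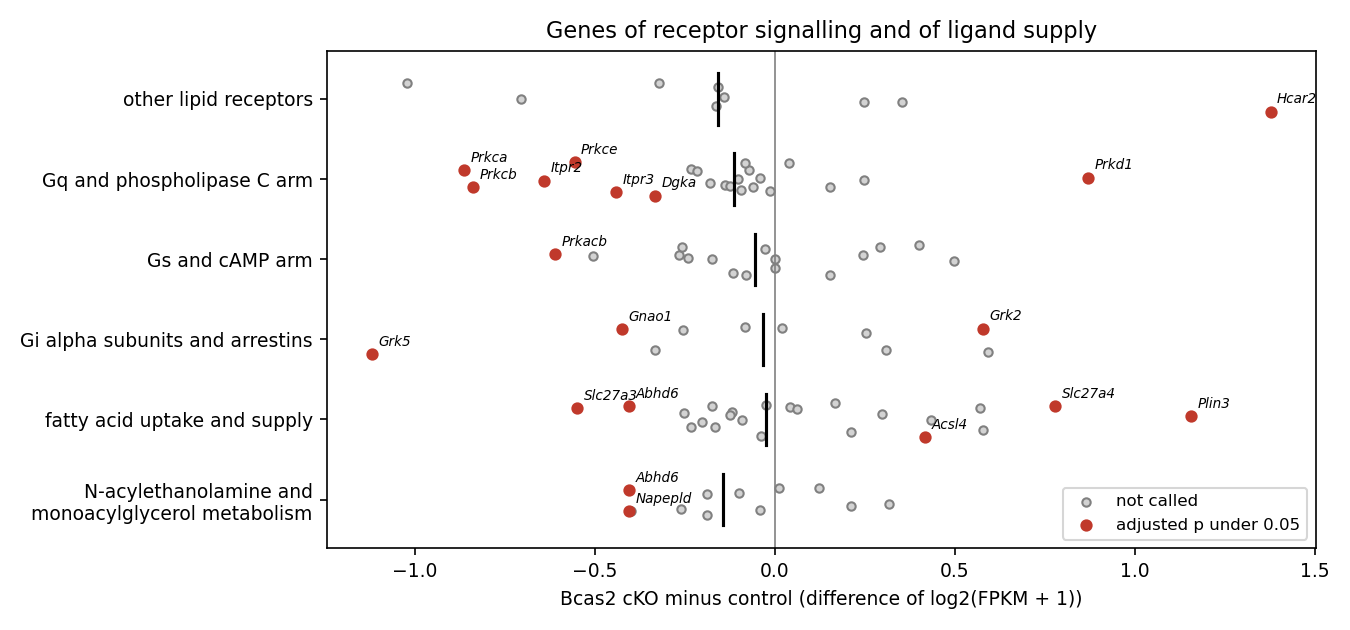
Difference of log2(FPKM + 1), Bcas2 cKO minus control, for the tested genes of 6 lists (rows). Filled red points had an adjusted p under 0.05 in limma and are named, grey points did not, and black lines are list medians, which run from -0.16 to -0.02. Prkca, Prkcb and Grk5 are among the lowest points and Hcar2 and Plin3 the highest.

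Other receptors with lipid ligands were mostly below 1 FPKM, and 9 of the 39 found in the table were tested. Of these 1 rose and none fell in limma, 11.1% against 14.5% of all genes tested, while voom called 1 higher and 1 lower. Hcar2, the receptor of ketone bodies, niacin and butyrate, rose to 4.37 ± 0.397 FPKM in Bcas2 cKO, against 1.15 ± 0.803 FPKM in control (SD, n = 3 each; 1.38, SE 0.24, limma adjusted p 0.014), with no overlap. It lost its call without Bcas2 cKO library 4 (0.055) or 5 (0.052). The other 8 did not pass in limma. Among them were the lactate receptor gene Hcar1, with 1.16 FPKM in Bcas2 cKO and 3.74 FPKM in control (limma adjusted p 0.11), and the cannabinoid receptor gene Cnr1, with 0.686 FPKM in Bcas2 cKO and 1.79 FPKM in control (0.053).

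The protein-coding genes whose centred log2(FPKM + 1) values over the 6 libraries were closest to those of Ffar3 were Hist1h4m, Sez6l, Asb11, Hist1h1e and Kcnj12, with root mean square differences of 0.18 to 0.22, and Ffar1 was in place 28 of 11439 genes ranked (0.30). Sez6l, a neuronal membrane protein gene, averaged 26.2 ± 1.32 FPKM in Bcas2 cKO and 65.1 ± 6.05 FPKM in control, and Kcnj12, an inward rectifier potassium channel, 1.81 ± 0.352 FPKM in Bcas2 cKO and 5.99 ± 1.09 FPKM in control (SD, n = 3 each). Asb11, a substrate receptor of ubiquitin ligases, averaged 0.874 ± 0.134 FPKM in Bcas2 cKO and 3.25 ± 1.48 FPKM in control. Each of the genes closest to Ffar3 was highest in control library 1, as was Ffar3. They were picked for this closeness, so that peak and their lower level in Bcas2 cKO are not separate results. The histone genes Hist1h4m and Hist1h1e averaged 2.10 and 1.57 FPKM in Bcas2 cKO, against 7.10 and 7.43 FPKM in control. Near-identical copies of Hist1h4m leave the division of its reads uncertain. Whether reads were counted by strand is not stated.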

How the data were processed

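The members and all lists were chosen with earlier results of these data known. Islet RNA (Trizol) went into SMARTer mRNA-seq libraries per the labels' protocols, and per the submitters' processing notes the build was GRCm38 (mm10). No source used here gives the aligner, counting or scaling. The authors deposited FPKM per gene, 1 column per library. Dividing FPKM times length by the smallest step of each library returned whole reads for 100% of values above 0 (within 0.01 of a read), or 16351800 to 16904326 reads on genes in Bcas2 cKO and 15170439 to 15594871 in control. The depth behind FPKM was not these reads alone. It was 1.11, 1.04 and 1.02 times them in Bcas2 cKO libraries 3, 4 and 5. In control libraries 1, 3 and 4 it was 1.02, 0.89 and 0.97 times them. All pairs of libraries differed by more than sampling noise (chi-square per degree of freedom at least 13.6). The 13723 genes averaging at least 1 FPKM were fitted on log2(FPKM + 1) with limma 3.58.1 (eBayes with trend, R 4.3.3), with Benjamini-Hochberg adjustment over all of them and a threshold of 0.05. This scale understates changes of low genes. Named from the lists were up to 6 called members of largest change or, where none was called, the 2 of highest level, with tested protein-coding neighbours and the 5 genes most like Ffar3. A few other genes are named for their role or their values, chosen after the values were seen: the markers, Dgka, Gnaq, Gna11, Gnai2, Gnas, Hcar1, Cnr1 and Cd22. Summaries and plots used Python 3.11.15, pandas 2.3.3 and matplotlib 3.10.9. Alternatives were a pseudocount of 0.1, other filters, median-of-ratios scaling, rescaling without hormone genes, voom on recovered reads, eBayes without trend, a block on library numbers, and leaving out each library.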

Additional observations from a re-analysis of the deposited data

How the results depend on the processing

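The numbers 3 and 4 that both groups carry do not show a pairing: deviations from the group means correlated at -0.15 and 0.05 between same-numbered libraries. A replicate block on them, which leaves libraries 1 and 5 unmatched, took the count of genes called to 538 from 1993, that of the lists to 4 from 18 and that of the neighbours to 0 from 3 (limma; 5 of 15 at an unadjusted p under 0.05, 4 with voom and no block). Under the block Ffar3 was -1.17 and Ffar1 -0.63 (limma adjusted p 0.088). With no filter beyond a mean above 0, 1144 genes were called and Ffar1, at -0.90, was not (limma adjusted p 0.066). Leaving out 1 library gave 878 to 1950 genes called, -1.61 to -1.24 for Ffar3, -1.06 to -0.69 for Ffar1, 10 to 19 list genes, and 1 to 4 neighbours. Lsr ranged over -0.052 to 0.086 in those fits, turning to -0.0047 without Bcas2 cKO library 4 and -0.052 without control library 4. Rbp4 ranged over -0.26 to 0.10, turning to 0.10 without control library 3, and neither was called. Ffar2, Gpr119 and Ffar4 kept their direction and stayed uncalled in all fits run, and no scaling moved the median of all genes by over 0.1. The causes were not tested. Reads limit Ffar3 most in Bcas2 cKO, with at most 135 in a library, and Ffar4 most in control, with at most 179.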
